A study of Mus musculus with 26 samples.

Results

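The actin and ERM cytoskeleton genes are 10 genes chosen by symbol, of 9574 genes listed in the 3 striatal tables of ribosome footprinting and RNA-Seq from LRRK2 mouse models. They code for 3 actins (Actb, Actg1 and Acta1), 4 proteins that bind actin monomers or sever filaments (Cfl1, Pfn1, Pfn2 and Tmsb4x) and the 3 ERM proteins ezrin (Ezr), radixin (Rdx) and moesin (Msn). Each table of transgenic (TG) mice, GS LRRK2 TG or GS/DA LRRK2 TG, holds 8576 genes and 9 of the 10 members, and the LRRK2 KO table holds 9561 genes and all 10. Msn is listed in the LRRK2 KO table alone.

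Actin filaments shape dendritic spines, axon terminals and glial processes, and in striatal projection neurons they anchor the synapses that receive cortical and dopamine input. Cofilin severs filaments, profilin loads monomers for growth at filament ends, and thymosin beta-4 holds monomers in reserve. ERM proteins tie filaments to membrane proteins once a kinase has phosphorylated them, and LRRK2, a large kinase mutated in familial Parkinson's disease, can phosphorylate them in vitro.

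All mice were C57BL/6, labelled 3 months old (3 to 4 months in the authors' methods), and the tissue was striatum. GS LRRK2 TG mice carried a G2019S LRRK2 transgene and GS/DA LRRK2 TG mice a kinase-dead G2019S/D1994A transgene, both from high copy Tet-off lines driven by CaMKII-tTA, which acts in forebrain neurons. Breeding cages had doxycycline chow until weaning, which kept the transgenes silent. Their controls were non-TG animals labelled wild-type, and LRRK2 KO mice, with a germline disruption of Lrrk2, were set against WT mice. Each library came from the pooled tissue of 3 mice of both sexes. The labels name 3 non-TG control libraries per assay, 2 for each transgenic genotype, 2 WT and 2 LRRK2 KO RNA-Seq libraries and 3 of each for footprinting. Each mean of the LRRK2 KO table was resolved into 2 libraries, and the ventral midbrain libraries were not analysed here. The deposited values are group means of reads over the coding sequence (CDS), normalized by DESeq size factors. Both transgenic comparisons draw on the non-TG control libraries that the labels name, so they are not taken as independent of each other, and which of these libraries enter which control mean is not given in the sources used here.

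For every group mean made from 2 libraries, whole read numbers per library were worked back from the mean, because few pairs give the same mean. Between 98.2% and 99.97% of genes had exactly 1 such pair. The control means of the GS LRRK2 TG table could not be resolved in this way and are given as means. They may pool all 3 labelled libraries, although a figure legend of the authors gives n = 2 for the combined analysis. The share of each library in them is unknown, which leaves the TE changes of that table less certain. Library A of a control group is the deeper of its pair, and a genotype library is called A or B after the control library that it resembled. The letters do not link footprinting with RNA-Seq libraries, nor do they stand for replicate numbers. Recovered reads per library ran from 7379722 to 18389381 for footprinting and from 8696465 to 14546606 for RNA-Seq in the transgenic tables. They ran from 2865413 to 6051183 and from 3131554 to 10812639 in the LRRK2 KO table.

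Group means of Lrrk2 itself followed the labels in footprints. For GS/DA LRRK2 TG mice its footprints were at 1445 and 1224 normalized reads in the control libraries and at 7267 and 4766 in the transgenic libraries, a log2 change of means of 2.17. Its RNA-Seq change there was -0.09, from libraries far apart, 5233 and 560 in controls and 5038 and 404 in transgenic mice. In the GS LRRK2 TG table the footprinting mean was 2524 in controls, against 7052 and 3320 in the transgenic libraries, a change of 1.04, with -0.16 in RNA-Seq, where the transgenic libraries were at 3550 and 214. This control mean lay above both control libraries set against GS/DA LRRK2 TG mice. Control footprinting means of all listed members were lower in the GS LRRK2 TG table than in the other transgenic table. Its control libraries are unresolved, so whether each followed its label could not be checked. In LRRK2 KO mice footprints were at 102 and 149.7 normalized reads against 400.3 and 690.1 in WT, a change of -2.12, and the RNA-Seq change was -1.54.

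Markers of striatal projection neurons were listed for 10 of 10 genes in each table, with Ppp1r1b, the dopamine-regulated phosphatase inhibitor DARPP-32, the most abundant. Astrocyte markers were listed for 7 of 7, led by Aldoc, and microglia markers for 9 of 11 in the transgenic tables and 10 of 11 in the LRRK2 KO table. None of 9 endothelial markers was listed, which says only that they are not in tables filtered for read number. Of 13 skeletal muscle genes only Myh7 was listed, and Ckm, Mylpf and Tnnt3 were not, although Acta1 is the actin best known from skeletal muscle. The listed genes of 8 vascular smooth muscle and pericyte markers were Tagln in the transgenic tables and Myh11, Myl9, Rgs5 and Tagln in the LRRK2 KO table. The samples are bulk tissue, so fewer cells of a type and less RNA per cell cannot be told apart in any value that follows.

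Levels per kb of CDS spread widely among the members, with Actb at the top and the ERM genes at the low end in most groups and other places varying. Actb had the highest level in 11 of 12 group and assay columns, and Tmsb4x led in the remaining column, LRRK2 KO RNA-Seq. In WT footprints the order per kb was Actb, Actg1, Tmsb4x, Cfl1, Pfn2, Pfn1, Acta1, Rdx, Ezr and Msn, from 31728 normalized reads per kb for Actb to 23.2 for Msn, a range of 1365-fold. The libraries of neighbours in that order overlapped for Actg1 and Tmsb4x, for Pfn1 and Acta1, and for Ezr and Msn. In the non-TG control RNA-Seq set against GS/DA LRRK2 TG mice, the order was Actb, Cfl1, Tmsb4x, Actg1, Pfn2, Pfn1, Acta1, Rdx and Ezr, a range of 157-fold. There 5 of the 7 neighbouring pairs with recovered libraries overlapped. Ezr and Msn lie near the floor of the LRRK2 KO table. Ezr footprints in WT were at 90.3 and 35.97 normalized reads, and Msn at 40.5 and 39.97, so neither gives a precise ratio.

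TE, the log2 ratio of a gene's footprinting mean to its RNA-Seq mean, was high for the actins, though not for them alone, relative to other genes in control striatum. In the GS LRRK2 TG table control TE was 1.49 for Acta1, 1.08 for Actg1 and 1.00 for Actb, at percentiles 98.5, 95.1 and 94.1 of all genes. For GS/DA LRRK2 TG mice the controls stood at percentiles 97.1, 96.2 and 95.2. In WT of the LRRK2 KO table they were 0.66, 0.28 and 0.22, on a scale normalized separately. The predicted folding energy of the 5′UTR, the lowest over isoforms, was -8.7 kcal/mol for Acta1, -15.3 for Actg1 and -17.1 for Actb, weaker folds than those of most genes, whose median was -90.4. Rdx stood at the other end with -289.4 kcal/mol, at percentile 10.2 of all genes, yet its control TE was at percentiles 86.7, 90.3 and 97.0 in the 3 tables. The second of these rests on control RNA-Seq libraries of 1131 and 174 normalized reads, so it is not a precise value. Control TE of Tmsb4x was at percentiles 96.5, 98.7 and 52.9.

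Reads of the actins cannot be assigned to a single gene over the whole CDS. Reads had been mapped to the genome with at most 1 mismatch, so the CDS of 1 isoform per gene was divided into all its windows of 28 bases, the length of a typical footprint, and each window was sought elsewhere at that tolerance. Of 1101 windows of Actb, 363 (33.0%) matched another annotated CDS, with 20.4% matching Actg1 and 16.2% matching Acta1. The share was 25.9% for Actg1 and 25.2% for Acta1. A search of the whole genome, which meets the other actin genes as well as processed copies, matched 83.3% of Actb windows, 100% of Actg1 windows and 30.4% of Acta1 windows. Both searches together covered 31.1% of Acta1 windows, so copies outside annotated CDS added few for that gene. The closest copy of Actg1 lies at chr4:103236007-103237134 (NCBIM37, the mm9 assembly), where Gm10963 and Gm12715 are annotated, and 94.4% of Actg1 windows are there without a mismatch. How reads with several places were counted is not given in the sources used here. The levels, TE values and changes of Actb, Actg1 and Acta1, and the differences between them, are uncertain to that extent. Longer windows of 34 bases matched another annotated CDS less often, in 14.9% of cases for Acta1. Whether shared reads affected footprinting and RNA-Seq unequally, and so TE, was not tested.

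**Figure D1:**
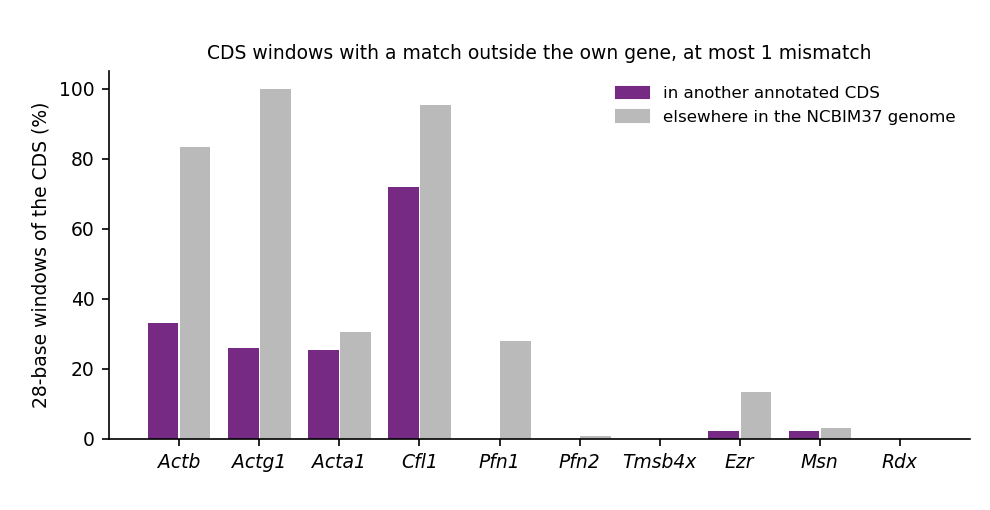
Share of the 28-base CDS windows of each member (y axis, percent) with a match of at most 1 mismatch in another annotated CDS (purple bars) or elsewhere in the NCBIM37 genome (grey bars). Cfl1 and the 3 actins carry the tallest bars, and Tmsb4x and Rdx have no shared window in the isoform searched.

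The stretch below shows where a footprint can tell the actins apart. Over the aligned CDS, Actb is identical to Actg1 at 88.7% of bases and to Acta1 at 85.0%, and Actg1 to Acta1 at 83.8%. The stretch shown is the least alike. It begins at the start codon in Actb (chr5:143667338-143667365) and Actg1 (chr11:120209378-120209405), and at base 7 of the CDS in Acta1 (chr8:126417564-126417591), all on the minus strand of NCBIM37, and is given 5′ to 3′. Capitals mark the bases unlike Actb, 7 in Actg1 and 12 in Acta1.
Actb: atggatgacgatatcgctgcgctggtcg
Actg1: atggaAgaAgaAatcgcCgcActCgtcA
Acta1: GACgaAgacgaGaCcAcCgcTctTgtGT

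Among the other members, Cfl1 shares most sequence. A copy annotated as Gm6180 at chr8:43332265-43332952 holds 62.9% of Cfl1 windows exactly, 72.0% of its windows match another annotated CDS and 95.4% match elsewhere in the genome with at most 1 mismatch. Pfn1 windows matched elsewhere in 28.03% of cases and those of Pfn2 in 0.758%. Ezr and Msn shared 39 windows with each other, 2.25% of Ezr windows, and 13.2% of Ezr windows and 3.16% of Msn windows matched elsewhere in the genome. Tmsb4x and Rdx had no shared window in the isoform searched, while reads were counted over the union of isoforms. The actins Acta2, Actc1, Actg2 and Actbl2 were in none of the 3 tables.

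Calls used a z score of the TE change, genotype minus control, over all genes of a table, with TE up at 1.5 or above and TE down at -1.5 or below. In GS LRRK2 TG striatum 2 of 9 members, Tmsb4x and Rdx, were TE up, against 8.01% of all genes, and 0 of 9 were TE down, against 3.91%. GS/DA LRRK2 TG striatum had 1 of 9, Acta1, TE up, against 3.65%, and 1 of 9, Rdx, TE down, against 7.36%. In LRRK2 KO striatum 1 of 10, Acta1, was TE up, against 6.23%, and 0 of 10 were TE down, against 6.02%. Actb and Actg1 lay just under the cutoff there. With a pseudocount of 10, members TE up were 3 of 10, against 6.47% of all genes. With the trend on GC content removed they were 3 of 10, against 6.29%. The actins share CDS windows, so such counts are not counts of independent genes. In the main calls a count of 1 of 9 or 10 is near these shares, and 2 of 9 is about 1 gene above 8.01%. The median TE change of the members was 0.01, -0.02 and 0.16 in the 3 comparisons, and that of all genes was 0.02, -0.05 and 0.02. In LRRK2 KO striatum 9 of 10 members had a TE change above 0, as did 53.0% of all genes. The count was 5 of 9 in GS LRRK2 TG, against 54.8%, and 3 of 9 in GS/DA LRRK2 TG, against 33.5%.

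Taking each assay on its own, genes in general had more changes in RNA-Seq than in footprints, so the counts of members stand beside the share of all genes. A log2 change of at least 0.3 in size in footprints was seen for 1 of 9 members in GS LRRK2 TG (Tmsb4x), against 3.38% of genes (0 of 9 with the trend on GC content removed, against 2.59%), for 0 of 9 in GS/DA LRRK2 TG, against 4.13%, and for 0 of 10 in LRRK2 KO, against 9.9%. In RNA-Seq it was seen for 1 of 9 in GS LRRK2 TG (Rdx), against 13.3%, and for 1 of 9 in GS/DA LRRK2 TG (Rdx), against 11.4%. In LRRK2 KO it was seen for 3 of 10 (Acta1, Actb and Actg1), against 17.2%. These are the 3 actins, which share CDS windows, so they are not taken as independent of each other.

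**Figure D2:**
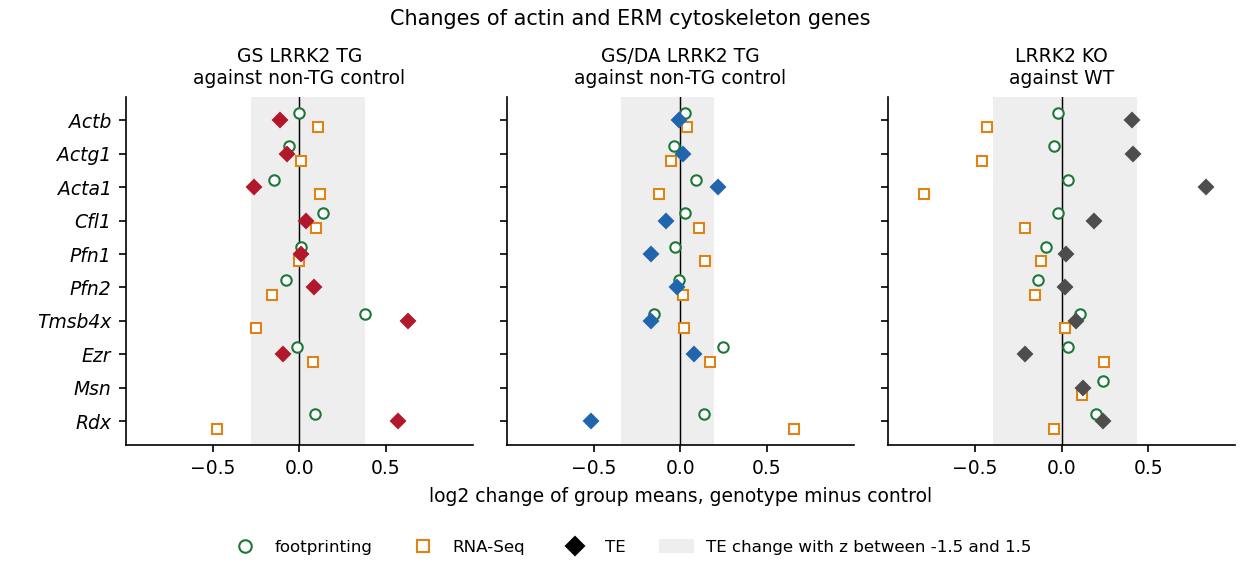
Log2 change of group means, genotype minus control (x axis), for each member (y axis) in the 3 comparisons, with footprinting as open circles, RNA-Seq as open squares and TE as filled diamonds. The grey band spans TE changes with z between -1.5 and 1.5, and diamonds lie outside it for Tmsb4x and Rdx in GS LRRK2 TG, Acta1 and Rdx in GS/DA LRRK2 TG and Acta1 in LRRK2 KO.

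The actins, which form the filaments themselves, differed most in LRRK2 KO RNA-Seq. Acta1, a minor actin in brain, had RNA-Seq levels of 1058 and 2871 normalized reads in WT libraries A and B and of 951 and 1318 in LRRK2 KO libraries A and B. Footprints were at 2858 and 3349 in WT and at 2978 and 3399 in LRRK2 KO. The RNA-Seq ranges overlapped, and the high value belongs to a single WT library, B. It had 3131554 recovered reads, against 7478198 in WT RNA-Seq library A. The log2 changes of means were 0.04 in footprints and -0.79 in RNA-Seq, a TE change of 0.83 (z = 2.97), the 48th highest of 9561. Between RNA-Seq libraries A the change was -0.15 and between libraries B it was -1.12. Without WT RNA-Seq library B the TE change was -0.06, so this call rests on that library. It was also lost without WT footprinting library A (0 of 9 members TE up, against 8.81% of genes). The same held without LRRK2 KO RNA-Seq library A (0 of 9, against 6.01%). The TE change kept its sign in 13 of 14 alternatives.

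Actg1, the cytoplasmic gamma actin, showed the same split at a smaller size. Its RNA-Seq levels were 11612 and 24003 in WT and 10602 and 15299.6 in LRRK2 KO, and its footprints were 21031 and 22227 against 20461 and 21427. Again 1 WT RNA-Seq library stood above the other 3. Between RNA-Seq libraries A the change was -0.13 and between libraries B it was -0.65. The TE change was 0.41 (z = 1.44), with -0.05 in footprints and -0.46 in RNA-Seq, and without WT RNA-Seq library B it was -0.20. Actb, the cytoplasmic beta actin, had the like TE change of 0.41 (z = 1.42), from 36360.1 to 35836 in footprints and from 31312 to 23259.8 in RNA-Seq. Its reads are so many that 2 pairs fit each of these means. For WT RNA-Seq they were 51011 and 11613 or 20661 and 41963, so its libraries are not given further.

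In the transgenic comparisons the group means of the actins lay closer to those of their controls. Acta1 had a TE change of 0.22 in GS/DA LRRK2 TG (z = 1.68), with footprints at 7655 and 12247 in control libraries and 7783 and 13424 in transgenic libraries. Its RNA-Seq levels were 4305 and 2851 in controls and 3437 and 3120.4 in transgenic libraries. The transgenic RNA-Seq libraries lay inside the control range. The TE change was 0.42 with RNA-Seq libraries A alone and -0.04 with libraries B alone. Leaving out control footprinting library A gave -0.08, control RNA-Seq library A -0.11 and transgenic footprinting library B -0.23. In GS LRRK2 TG the Acta1 TE change was -0.26 (z = -1.45). TE changes of Actb and Actg1 were -0.11 and -0.07 in GS LRRK2 TG and -0.01 and 0.02 in GS/DA LRRK2 TG. Leaving out 1 recovered library at a time, Actg1 ranged from -0.48 to 0.51 and from -0.41 to 0.34 in that order. Acta1 in GS LRRK2 TG then ranged from -0.59 to 0.0056.

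Tmsb4x, which codes for the monomer-holding thymosin beta-4, had the highest TE change of the members in GS LRRK2 TG, 0.63 (z = 2.66). Its footprints had a mean of 7792 in controls against 13199.8 and 7045 in transgenic libraries, a log2 change of 0.38, which fell under 0.3 once the trend on GC content was removed. RNA-Seq had a mean of 3353 in controls against 1548 and 4092, a change of -0.25. The control means lie between the transgenic libraries in both assays. Without transgenic footprinting library A the TE change was 0.10, and without RNA-Seq library A it was 0.09. Without footprinting library B it was 1.01 and without RNA-Seq library B 1.49. In GS/DA LRRK2 TG the Tmsb4x TE change was -0.17 and in LRRK2 KO it was 0.08. Transgenic footprinting libraries of GS/DA mice, at 13399 and 6470, were also far apart.

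Cfl1, the filament-severing cofilin of non-muscle cells, and the profilins Pfn1 and Pfn2 had TE changes between -0.17 and 0.19 in the 3 comparisons. Leaving out 1 recovered library at a time, Cfl1 ranged from -0.32 to 0.53 in GS LRRK2 TG. It ranged from -0.58 to 0.51 in GS/DA LRRK2 TG and from -0.31 to 0.56 in LRRK2 KO. Pfn1 shows how far libraries of a group can differ. For GS/DA LRRK2 TG mice its RNA-Seq levels were 866 in control library A and 4933 in library B, and 797 and 5604 in the transgenic libraries, while footprints ran from 5089 to 5507 over all 4 libraries. Since both groups hold an A and a B library, the difference of means was 0.14 in RNA-Seq. Overlap could be checked only where libraries of both groups were recovered, so not for Actb and not in GS LRRK2 TG. Pfn2, the profilin enriched in neurons, was the only member so checked whose libraries did not overlap between groups. In LRRK2 KO its footprints were 1619 and 1494 normalized reads against 1623 and 1795 in WT. This was 1 of 9 members with recovered libraries, against 12.6% of genes, and the gap was 1623 against 1619. No member was separated in LRRK2 KO RNA-Seq (0 of 9, against 14%), in GS/DA LRRK2 TG footprints (0 of 5, against 24.3%) or in GS/DA LRRK2 TG RNA-Seq (0 of 7, against 3.38%).

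Rdx, the ERM gene with the highest level per kb in 11 of 12 columns, was called in both transgenic comparisons with opposite signs. In GS/DA LRRK2 TG its RNA-Seq levels were 1131 and 174 normalized reads in control libraries A and B and 1895 and 158 in transgenic libraries A and B. Its footprints were 1789.7 and 828 in controls and 1777 and 1101 in transgenic libraries. Library A stood above library B in every pair, and the groups overlapped in both assays. The log2 changes of means were 0.14 in footprints and 0.65 in RNA-Seq, a TE change of -0.52 (z = -2.54). The RNA-Seq change was 0.75 between libraries A and -0.14 between libraries B, so the TE change was -0.61 with RNA-Seq libraries A alone and 0.28 with libraries B alone. Leaving out 1 library at a time moved it from -2.42, without control RNA-Seq library A, to 2.19, without transgenic RNA-Seq library A. It was 0.14 without control footprinting library A and 0.28 without control RNA-Seq library B. Each such step sets 1 library of a group against an A and a B library of the other, so it includes the difference between libraries A and B.

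In GS LRRK2 TG the Rdx TE change was 0.57 (z = 2.4), from 0.09 in footprints and -0.48 in RNA-Seq. RNA-Seq had a mean of 628 in controls against 787 and 115 in transgenic libraries A and B, and footprints a mean of 984 against 1378 and 720.4. The control mean lies between the transgenic libraries in both assays. Without RNA-Seq library B the TE change was -0.23, without RNA-Seq library A 2.54, and without footprinting library A 0.03. The difference between both transgenic comparisons was not tested, since both draw on the labelled non-TG controls.

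The RNA-Seq libraries A and B of the transgenic tables differed in base composition. Across genes, the log2 ratio of library A to library B had a Spearman correlation with CDS GC content of -0.79 in GS LRRK2 TG (n = 8306 genes), -0.78 in non-TG controls (n = 8269) and -0.80 in GS/DA LRRK2 TG (n = 8262). Genes are not independent replicates, and these values describe the libraries. Between 48.6% and 56.1% of genes were at least 2-fold apart between both libraries of a group. Rdx, with 47.0% GC, and Tmsb4x, with 41.8%, have the lowest GC content of the members, at percentiles 19.1 and 3.09 of all genes. With the trend on GC content removed from the changes, TE changes in GS LRRK2 TG were 0.45 for Rdx and 0.42 for Tmsb4x, and that of Rdx in GS/DA LRRK2 TG was -0.48. In the LRRK2 KO table the same correlation was -0.04 in WT and -0.27 in LRRK2 KO for RNA-Seq. Footprinting libraries differed in base composition too, with correlations of 0.54 in WT and 0.23 in LRRK2 KO, and of -0.31 in GS LRRK2 TG, -0.43 in non-TG controls and -0.47 in GS/DA LRRK2 TG.

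**Figure D3:**
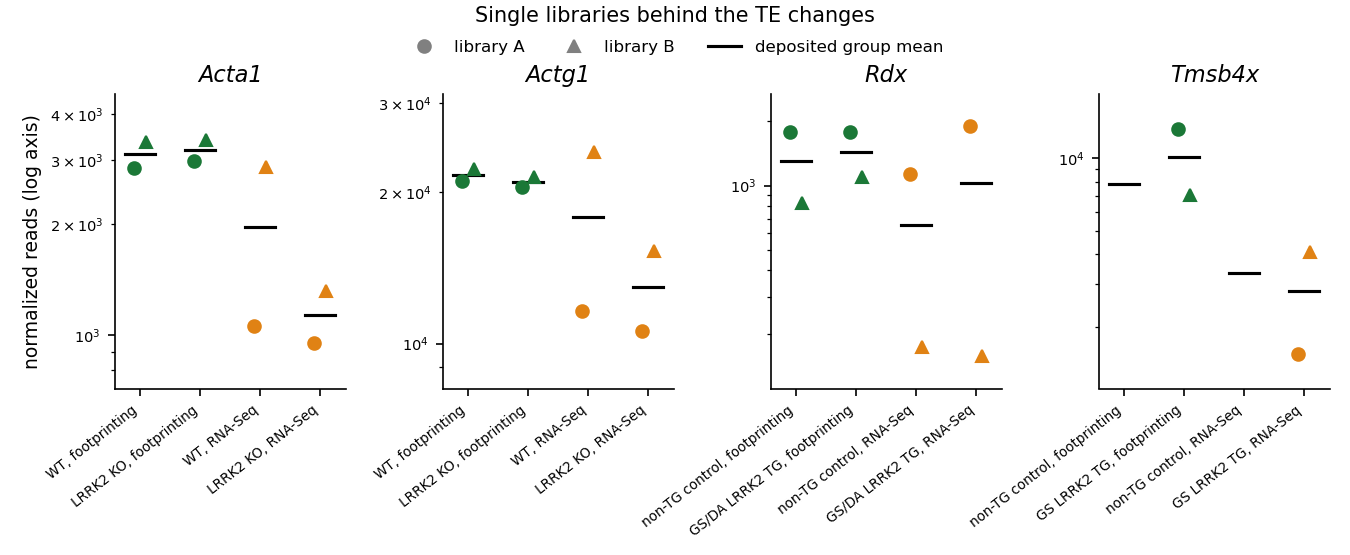
Normalized reads (log y axis) of Acta1 and Actg1 in the LRRK2 KO table, Rdx for GS/DA LRRK2 TG mice and Tmsb4x for GS LRRK2 TG mice, by group and assay (x axis), with libraries A as circles, libraries B as triangles and deposited means as bars. WT RNA-Seq library B stands above the other RNA-Seq libraries for Acta1 and Actg1, libraries A and B of Rdx lie far apart in both groups, and the non-TG means of Tmsb4x have no library points because they could not be resolved.

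In LRRK2 KO striatum Rdx had a TE change of 0.24, Msn 0.12 and Ezr -0.21. Ezr, the ERM protein best known from epithelia and also found in astrocytes, had changes of 0.03 in footprints and 0.25 in RNA-Seq there. Its RNA-Seq levels were 99.4 and 123.5 normalized reads in WT and 107 and 157.5 in LRRK2 KO. In the transgenic comparisons Ezr had TE changes of -0.09 in GS LRRK2 TG and 0.08 in GS/DA LRRK2 TG. Msn, the ERM gene of microglia and vessels, was at 46.3 and 65.6 in WT RNA-Seq and at 44.7 and 76.8 in LRRK2 KO. Its footprints were 64.4 and 30.8 in LRRK2 KO, a range that encloses both WT libraries. Summed microglia markers in LRRK2 KO differed from WT by 0.19 in footprints and 0.28 in RNA-Seq. RNA-Seq sums of libraries A and B were 915 and 1839 in WT and 916 and 2417 in LRRK2 KO. Footprint sums of libraries A and B were 1257 and 288 in WT and 1482 and 283 in LRRK2 KO. The part of microglia in the Msn and Ezr values was not tested.

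limma, fitted to log2 of the recovered normalized reads plus 10 with Benjamini-Hochberg adjustment over all genes, called no gene in the main fits of the GS/DA LRRK2 TG and LRRK2 KO comparisons. GS LRRK2 TG had no limma fit, as its control means could not be resolved, and its TE calls for Tmsb4x and Rdx are untested. In GS/DA LRRK2 TG it called 0 of 8406 genes in footprints (0%, members 0 of 5), 0 of 8482 in RNA-Seq (members 0 of 7) and 0 of 8376 for the genotype by assay interaction (members 0 of 5). The genes at an unadjusted limma p under 0.05 numbered 153, 0 and 0. In LRRK2 KO limma called 0 of 9554 genes in footprints, 0 of 9554 in RNA-Seq and 0 of 9552 for the interaction, with members 0 of 9 in each, and 16, 7 and 4 genes were at an unadjusted p under 0.05. None of the members was among them. Lrrk2 in footprints had an unadjusted limma p of 0.000109 (adjusted p = 0.915) in GS/DA LRRK2 TG and 0.00489 (adjusted p = 1.00) in LRRK2 KO, so the main fit passes over a change of that size. With libraries A and B as a block, built from the resemblance of libraries, limma called Lrrk2 in footprints in GS/DA LRRK2 TG (adjusted p = 0.00149) and LRRK2 KO (adjusted p = 3.69e-22) and in LRRK2 KO RNA-Seq (adjusted p = 3.07e-08), and still no member. For Acta1 in LRRK2 KO, limma gave -0.64 (SE 0.518) in RNA-Seq and 0.68 (SE 0.643) for the interaction, both with an adjusted p of 1.00. For Rdx in GS/DA LRRK2 TG the limma interaction was -0.10 (SE 1.92, adjusted p = 1.00). These tests do not show that the groups were alike. The series calls its mouse replicates biological, each library here being a pool of mice, so p-values measure the spread between pools. The authors divided each lysate between footprinting and RNA-Seq. Recovered libraries could not be matched between assays, so the interaction fit treated them as unpaired.

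Other genes of the pathway were followed in lists of 101 genes of actin regulation and ERM partners. In GS LRRK2 TG 85 were listed, 5 of them TE up (Slk, Capza2, Spnb2, Fmnl2 and Nckap1) and 1 TE down (Gsn), with a median TE change of 0.05 against 0.02 for all genes. GS/DA LRRK2 TG had 1 of 85 TE up (Fmn2) and 5 TE down (Slk, Rock2, Capza2, Daam1 and Fmnl2), with a median of -0.05, as for all genes. In LRRK2 KO 1 of 88 was TE up (Pls3) and 5 TE down (among them Nf2, Slc9a3r1, Flna and Ssh3), with a median of 0.05 against 0.02. Over the lists together, no share of TE calls exceeded the background share of its comparison and direction given above. Single lists are small, and among 7 listed ERM kinases and membrane partners, 2 (Nf2 and Slc9a3r1) were TE down in LRRK2 KO, against 6.02% of all genes, 1 (Slk) TE up in GS LRRK2 TG, against 8.01%, and 1 (Slk) TE down in GS/DA LRRK2 TG, against 7.36%.

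Among listed genes with all 4 means at 500 or more, the ends of the range were as follows. Slk, a kinase that phosphorylates ERM proteins, had the highest TE change in GS LRRK2 TG, 0.59, with 0.14 in footprints and -0.45 in RNA-Seq, followed by the spectrin gene Spnb2 with 0.48. The lowest there were the filament-severing Gsn with -0.28 and Coro1a with -0.23. At the low end in GS/DA LRRK2 TG, Slk had the lowest TE change, -0.64, with 0.02 in footprints and 0.66 in RNA-Seq, next to the kinase gene Rock2 with -0.52. Wdr1, a cofilin partner, and Dbnl had the highest, 0.11 and 0.10. In LRRK2 KO the GTPase gene Rhoa had 0.39 and the Arp2/3 subunit gene Actr2 0.37, while Git1 had -0.24 and the spine protein gene Dbn1 -0.20. As for Rdx, the Slk values in both transgenic comparisons came mainly from RNA-Seq. Its mean was 1104 in controls against 808 in GS LRRK2 TG, and 1130.2 against 1783 in GS/DA LRRK2 TG.

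The sum over 10 striatal projection neuron markers differed from controls by -0.12 in footprints and -0.11 in RNA-Seq in GS LRRK2 TG, by -0.31 and -0.20 in GS/DA LRRK2 TG, and by 0.05 and 0.07 in LRRK2 KO. The sum over 7 astrocyte markers differed by 0.07 and 0.04, by 0.08 and 0.11, and by -0.02 and -0.19. Microglia marker sums differed by 0.12 and 0.12 in GS LRRK2 TG and by 0.06 and 0.12 in GS/DA LRRK2 TG. Smooth muscle and pericyte markers summed to 242 normalized reads in WT footprints and 217 in LRRK2 KO, and to 282 and 211 in RNA-Seq, a change of -0.42. In LRRK2 KO 2 of these 4 markers were TE up, against 6.23% of all genes, with a median TE change of 0.28. Myh7 differed there by 0.20 in footprints and 0.35 in RNA-Seq. Myh7 had a TE change of -0.34 in GS LRRK2 TG, a TE down call, and of 0.32 in GS/DA LRRK2 TG, a TE up call, with footprinting changes of -0.29 and -0.03 and RNA-Seq changes of 0.05 and -0.35. Tagln differed by 0.34 in footprints and 0.22 in RNA-Seq in GS LRRK2 TG and by -0.14 and -0.23 in GS/DA LRRK2 TG. By library, RNA-Seq sums of the smooth muscle and pericyte markers were 274 and 289 in WT and 241 and 181 in LRRK2 KO. RNA-Seq sums of astrocyte markers were 9218 and 12535 in WT and 9255 and 9793 in LRRK2 KO. The part of either cell type in the Acta1 result was not tested.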

How the data were processed

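The authors mapped reads to mm9 with TopHat2 2.0.11 and Bowtie2 2.2.2 (the submitters' processing notes also name CASAVA 1.8), counted CDS reads over the union of isoforms, and left out transcripts under 128 reads. The deposited values are a normalized read signal, which the authors made with DESeq 1.20 as the mean over a group's libraries, each table normalized separately. Deposited log2 TE, TE difference and z score columns hold the study's own comparisons and were not used. The deposited folding energy of the 5′UTR (kcal/mol, no score of expression) was copied.

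TE was log2 of the footprinting mean over the RNA-Seq mean with a pseudocount of 0, and z scores used the mean and SD over all genes of a table (SD 0.273 in the LRRK2 KO table, 0.216 with GS and 0.174 with GS/DA mice). Library reads were recovered as whole numbers whose scaled sum gives the mean. That step was tested on simulated data, with the outcome not reported here. Actb could not be resolved, nor, with GS/DA LRRK2 TG mice, could Actg1 and Cfl1 in footprints of both groups, Tmsb4x in control footprints and Actg1 in transgenic RNA-Seq. Recovery cannot give every gene, so limma 3.58.1 (R 4.3.3) on log2(normalized reads + 10) was run in place of a count test, per assay and for the interaction. CDS windows were compared with the NCBIM37 genome and annotation, in which 97.1% of transgenic and 97.0% of LRRK2 KO genes were matched. Python 3.11.15, numpy 2.4.6, pandas 2.3.3, scipy 1.17.1, statsmodels 0.14.6 and matplotlib 3.10.9 were used.

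Named genes were all members, Lrrk2, other actins, and the 2 highest and 2 lowest TE changes of the pathway lists among genes with all 4 means at 500 or more. Genes called in lists of 5 or fewer were named after their values were seen, and 1 of them is not reported here. Members and lists were chosen with earlier results of these data known. Alternatives were other cutoffs, pseudocounts, scalings, a GC correction, filters, a replicate block, other windows and leaving out each library. RNA-Seq or footprinting libraries A alone and B alone were added after seeing the data. No correction was made for reads shared between paralogs or copies.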

Additional observations from a re-analysis of the deposited data

How the results depend on the processing

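Of 300 TE changes of single members recomputed under an alternative, 230 kept their sign and 70 turned, 10 of them in called members. Most moves were less than the spread between libraries, which is wide with 2 libraries per group, so this is no sign of stability. Rescaling columns to equal totals, centring on the median, a pseudocount of 10 and removal of the GC trend turned no called TE change. With RNA-Seq libraries B alone, chosen after seeing the data, the GS/DA LRRK2 TG TE changes turned to -0.039 for Acta1 and 0.28 for Rdx, members TE up and TE down were 0 and 0 of 7 (7.17% and 2.22% of all genes), and members with an RNA-Seq change of 0.3 were 0 (19.0% of all genes). Libraries A alone gave 2 such members there (28.5%). In LRRK2 KO, RNA-Seq libraries A alone gave 0 members TE up (6.12%) and 0 with an RNA-Seq change of 0.3 (10.2%), and libraries B alone gave 5 with that change (47.2%). Footprinting libraries A alone and B alone gave 1 and 1 members with a footprinting change of 0.3 in GS/DA LRRK2 TG (7.77% and 7.27% of all genes) and 3 and 1 in LRRK2 KO (25.5% and 24.0%). The cause was not tested.

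Members TE up in LRRK2 KO numbered 3 with a pseudocount of 10, with the GC trend removed, with each group mean 2 times or 4 times above the read minimum of the tables, with a z cutoff of 1, and with median and scaled MAD, against 6.47%, 6.29%, 6.38%, 6.70%, 14.3% and 7.60% of all genes in that order. A z cutoff of 2 gave 0 members TE up in GS/DA LRRK2 TG (1.12%). In GS LRRK2 TG, members TE down numbered 1 with either minimum (3.79% and 3.27% of all genes) and with a z cutoff of 1 (12.9%), and members TE up numbered 1 with the higher minimum (7.96%), where 7 members are tested. With a size of 0.2 in place of 0.3, footprinting changes numbered 1 in GS/DA LRRK2 TG (12.6% of all genes) and 1 in LRRK2 KO (23.6%), and RNA-Seq changes 2 in GS LRRK2 TG (27.5%) and 5 in LRRK2 KO (36.4%). With 0.5, footprinting and RNA-Seq changes both numbered 0 in GS LRRK2 TG (0.338% and 2.95%), and RNA-Seq changes 1 in LRRK2 KO (3.18%). Removal of the GC trend left 0 footprinting changes in GS LRRK2 TG (2.59%). The share of windows that match another CDS was 14.4% for Actb, 11.99% for Actg1 and 6.96% for Acta1 with exact matches, and 21.8%, 18.6% and 14.9% with 34 bases.

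Leaving out 1 library at a time, TE changes ranged from -0.80 to 2.06 for Pfn1 and from -0.23 to 2.54 for Rdx in GS LRRK2 TG. In GS/DA LRRK2 TG they ranged from -1.92 to 1.83 for Pfn1, from -2.42 to 2.19 for Rdx, from -1.17 to 0.79 for Tmsb4x and from -0.23 to 0.60 for Acta1. In LRRK2 KO they ranged from -1.28 to 0.60 for Ezr, from -0.50 to 0.57 for Msn, from -0.21 to 0.90 for Rdx, from -0.061 to 1.38 for Acta1 and from -0.20 to 0.84 for Actg1. Members TE up ranged from 0 to 2 in GS LRRK2 TG, 0 to 1 in GS/DA LRRK2 TG and 0 to 2 in LRRK2 KO, and members TE down from 0 to 1, 0 to 2 and 0 to 1 in that order, with as few as 5 members holding a value. Shares of all genes were 4.68% to 9.27%, 0.0352% to 8.18% and 2.45% to 8.81% TE up, and 0.0351% to 4.41%, 0.20% to 8.99% and 2.89% to 8.66% TE down. Footprinting changes ranged from 1 to 3, 2 to 3 and 1 to 3 members, and RNA-Seq changes from 4 to 5, 4 to 5 and 2 to 5. Shares of all genes rose as well, to 9.41% to 20.2%, 9.35% to 12.1% and 31.8% to 42.7% in footprints and 67.5% to 74.3%, 63.8% to 74.2% and 25.4% to 52.5% in RNA-Seq. limma then called 2 to 26 genes in GS/DA LRRK2 TG footprints, the lone library being assumed to vary like the others, with 0 members, and 0 in the other fits.

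The recovered libraries carry no replicate numbers, so a replicate block was built from libraries A and B. Log ratios of A to B in genotype and control libraries had a Spearman correlation across genes of 0.741 (footprints) and 0.978 (RNA-Seq) in GS/DA LRRK2 TG, and 0.764 and 0.686 in LRRK2 KO. With this block limma called 26 genes in GS/DA LRRK2 TG footprints, 15 in LRRK2 KO footprints and 11 in LRRK2 KO RNA-Seq, Lrrk2 in each of these and 0 members among them, and 0 in the other 3 fits. Depth limits Ezr and Msn in LRRK2 KO most, at 157.5 or fewer normalized reads in each library.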
